A study of Mus musculus with 6 samples.

Results

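Neurofilament and other intermediate filament genes were followed in 2 populations of spermatogonia, the germ cells that maintain sperm production. The 10 genes were Nefl, Nefm, Nefh, Ina, Prph, Vim, Des, Gfap, Nes and Lmna. They were found by gene symbol, and all 10 were among the 24973 genes measured. The family was selected on values of this very comparison, since Nefm ranked the second by size of fold change among all genes higher in undifferentiated cells and is also named by the study on these arrays. The differences of the 10 genes between the populations are therefore a description: values, fold changes and intervals are given for their size and error, and no test of these genes is used as support. The testes came from FVB/N adults of 2 to 3 months of age, with no treatment or genetic change named. A magnetic step on α-6 integrin came first, and a flow sorter then took cells of the Hoechst side population (SP) that lacked β-2 microglobulin (β-2M-SPα-6+) and parted them by surface c-kit. Cells without c-kit are undifferentiated spermatogonia, among which the stem cells are found, and cells with c-kit are differentiating. These are the c-kit- and c-kit+ cells of the text. Per population there were 3 samples, each of 10000 cells from 1 mouse, and a Mouse Gene 2.0 ST array from Affymetrix was run on each. The labels do not say if the same mice gave the c-kit- and the c-kit+ samples.

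Intermediate filaments are the strong, rope-like fibers of the cytoskeleton, and their proteins share a central α-helical rod that pairs into coils and assembles without a nucleotide. Neurofilaments fill the axons of neurons and set their width. They are built from a light (Nefl), a medium (Nefm) and a heavy (Nefh) subunit together with α-internexin (Ina) or peripherin (Prph). Vimentin (Vim), desmin (Des) and glial fibrillary acidic protein (Gfap) form filaments in mesenchymal cells, muscle and astrocytes, nestin (Nes) is known from neural progenitors, and lamins line the inside of the nuclear envelope. In the testis, vimentin is a common marker of Sertoli and other somatic cells, and desmin of peritubular muscle-like cells.

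The deposited signals were log2 values from robust multi-array average (RMA), from 2.03 to 12.97, with array medians between 5.25 and 5.33. Kit, the gene of the receptor used to part the populations, was at 6.07, 6.35 and 6.03 on the c-kit- arrays and at 9.84, 9.85 and 9.69 on the c-kit+ arrays. All 8 listed markers of undifferentiated spermatogonia, among them Gfra1 and Zbtb16, were higher in c-kit- cells. Of 5 listed markers of differentiating spermatogonia, 3 were lower in c-kit- cells, namely Kit itself, Stra8 and Dmrtb1. The others, Sohlh2 (log2 fold change -0.31) and Dnmt3b (-0.40), did not reach an adjusted p under 0.05 in limma. Genes of the undifferentiated list are named by the study from these arrays, and their direction is no independent evidence. Leukocyte markers stood apart between arrays of 1 population, whose mean was 6.30 on c-kit+ array 1, 6.03 on array 2 and 5.14 on array 3, against 5.01 to 5.34 on the c-kit- arrays. Spermatid markers were high in both populations, with a list mean of 9.85 to 10.37 on the c-kit- and 9.94 to 10.19 on the c-kit+ arrays. For each of these 6 markers the populations overlapped, and the source of their signal was not tested. In the limma fit, 4527 of 24973 genes (18.1%) had an adjusted p under 0.05, of which 2331 had the higher and 2196 the lower signal in the undifferentiated cells.

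Of the 3 neurofilament subunits, Nefm was far higher in c-kit- cells, and for Nefl and Nefh the populations overlapped. Nefm (gene ID 18040), the medium subunit with a long phosphorylated tail, was at 7.83, 8.08 and 8.03 on the c-kit- arrays and at 4.01, 4.42 and 3.75 on the c-kit+ arrays (log2 signals). The lowest c-kit- array lay well above the highest c-kit+ array, and the difference was far larger than the spread within either population. Its log2 fold change was 3.92 (standard error 0.17, 95% interval 3.52 to 4.32), a 15.1-fold higher signal in c-kit- cells. In sorted populations, more cells that use a gene cannot be told apart from more RNA per cell. Nefl (gene ID 18039), the light subunit that neurofilaments are built on, was at 3.85, 4.65 and 4.06 on the c-kit- arrays and at 3.80, 3.50 and 3.98 on the c-kit+ arrays. The populations overlapped for Nefl, and c-kit- array 2 was its highest array. The log2 fold change of Nefl was 0.43, with a 95% interval of -0.07 to 0.92 that lay below the interval of Nefm. Nefl was weak in both populations, with means of 4.185 (c-kit-) and 3.759 (c-kit+), where the lower quartile of all gene means was 3.92. The c-kit+ mean of Nefm, 4.059, was near that quartile too, and differences of such weak signals can be compressed. Nefh (gene ID 380684), the heavy subunit, was at 7.33, 6.91 and 6.71 against 7.20, 7.06 and 7.26. The c-kit- arrays of Nefh spanned the range of the c-kit+ arrays, with a log2 fold change of -0.19 (95% interval -0.56 to 0.19).

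Ina also had a higher signal on every c-kit- array than on any c-kit+ array. Ina (gene ID 226180), which encodes α-internexin and joins neurofilaments of the central nervous system, was at 8.01, 7.73 and 7.44 on the c-kit- arrays and at 6.43, 6.61 and 6.72 on the c-kit+ arrays. Of the c-kit- arrays, array 3 lay closer to the c-kit+ arrays than the other two did. The log2 fold change of Ina was 1.14 (standard error 0.16, 95% interval 0.77 to 1.51), a 2.20-fold higher signal in c-kit- cells. Without c-kit+ arrays 1 and 2, on which the leukocyte markers were higher, the log2 fold change of Ina was 1.01 and that of Nefm was 4.23. Prph (gene ID 19132), the gene of peripherin in neurons of the peripheral nervous system, was at 4.06, 3.84 and 4.04 against 4.11, 3.90 and 4.44, with populations that overlapped and a log2 fold change of -0.16 (95% interval -0.51 to 0.18). Promoter windows from the RefSeq table of the mouse build GRCm38.p6, each with 250 bases before and 50 after a gene's start, matched 7 of the 10 genes (8 windows), namely Ina, Prph, Vim, Des, Gfap, Nes and Lmna. The window of Ina is shown because, of the matched genes, Ina had the largest fold change. It lies at chr19:47014431-47014730 on the + strand, and capitals mark matches to the GC box GGGCGG on either strand.
Ina promoter: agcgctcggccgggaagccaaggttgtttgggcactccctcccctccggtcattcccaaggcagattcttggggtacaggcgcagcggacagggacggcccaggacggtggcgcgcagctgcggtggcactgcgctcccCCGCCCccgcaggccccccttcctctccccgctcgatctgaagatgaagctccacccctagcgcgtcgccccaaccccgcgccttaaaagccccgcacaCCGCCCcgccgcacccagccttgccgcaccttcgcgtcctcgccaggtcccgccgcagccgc
This window held 2 GC boxes, of which both were on the opposite strand, and no match on either strand to the CCAAT box (CCAAT), the TATA box (TATAAA), the core bound by ETS factors (CCGGAA) or the E-box (CACGTG). Its GC content was 71.7%, where the median over all 32851 promoter windows was 52.7%. A GC box was found in 35.7% of all windows and in 5 of the 8 windows of the list, and a match describes letters and does not show that a factor binds.

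**Figure D1:**
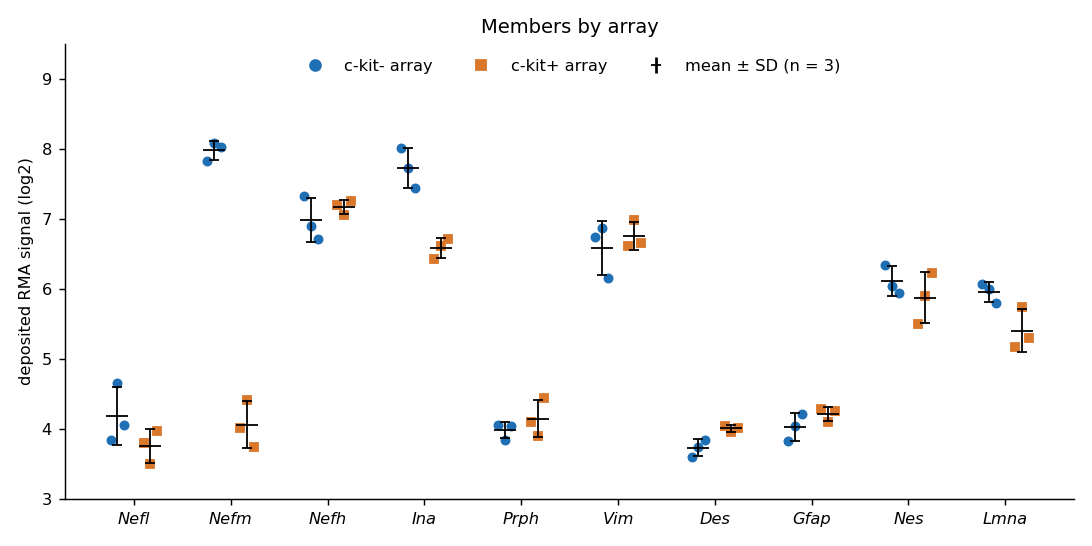
Deposited RMA signal (log2, vertical axis) of the 10 genes on each c-kit- array (circles) and c-kit+ array (squares), with the mean and SD of 3 arrays per population in black. Nefm lies between 7.83 and 8.08 on the c-kit- arrays and between 3.75 and 4.42 on the c-kit+ arrays, Ina is separated by less, and most other genes overlap.

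The filament genes of mesenchymal cells, muscle, glia and neural progenitors differed by less than Ina. Vim (gene ID 22352), the vimentin gene, was at 6.74, 6.87 and 6.15 on the c-kit- arrays and at 6.61, 6.98 and 6.66 on the c-kit+ arrays. The populations overlapped, c-kit- array 3 was the lowest array, and the 95% interval of the log2 fold change ran from -0.62 to 0.29. Des (gene ID 13346), the desmin gene, was at 3.60, 3.75 and 3.84 against 4.04, 3.96 and 4.02. Every c-kit- array of Des lay below every c-kit+ array, but by a narrow gap, with a log2 fold change of -0.28 (95% interval -0.52 to -0.03). Gfap (gene ID 14580), the filament gene of astrocytes, was at 3.82, 4.04 and 4.21 against 4.29, 4.10 and 4.26, with a log2 fold change of -0.19 (95% interval -0.49 to 0.11). The populations overlapped for Gfap. Nes (gene ID 18008), the nestin gene of neural progenitors, was at 6.35, 6.04 and 5.95 against 5.50, 5.89 and 6.23. The c-kit+ arrays of Nes were the more scattered, c-kit+ array 3 lay above 2 c-kit- arrays, and the log2 fold change was 0.24 (95% interval -0.21 to 0.68).

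Lmna (gene ID 16905), which encodes the A-type lamins of the nuclear envelope, was at 6.07, 6.0 and 5.80 on the c-kit- arrays and at 5.16, 5.75 and 5.30 on the c-kit+ arrays. The populations did not overlap, but c-kit+ array 2 came close to the c-kit- arrays, at 5.75 against a lowest c-kit- value of 5.80. The log2 fold change was 0.55 (standard error 0.17, 95% interval 0.17 to 0.93), a 1.47-fold higher signal in c-kit- cells. With 1 array left out at a time, the log2 fold change of Lmna ran from 0.43 (without c-kit+ array 1) to 0.73 (without c-kit+ array 2).

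As a count only, 2 of the 10 genes (20%), Nefm and Ina, had an adjusted p under 0.05 in the fit over all genes, both higher in c-kit- cells, and 8 had not. The share over all genes was 18.1% in either direction, made up of 9.33% higher and 8.79% lower in c-kit- cells. Since the values of this comparison chose the list, nothing is read from these counts. The populations did not overlap for 4 of the 10, namely Nefm, Ina, Lmna and Des, where the share over all genes was 35.1%. A fold change over 1.5 was seen for 2 of the 10, where 13.7% of all genes had one. The median log2 fold change of the list was 0.04 against -0.04 over all genes, and the median size of the change was 0.26 against 0.19. On a filter for low values, 6 of the 10 had a mean signal above the median of all genes (Nefm, Nefh, Ina, Vim, Nes and Lmna), 9 were above the lower quartile, and Des was below it. Nefl, Prph and Gfap lay between that quartile and the median.

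**Figure D2:**
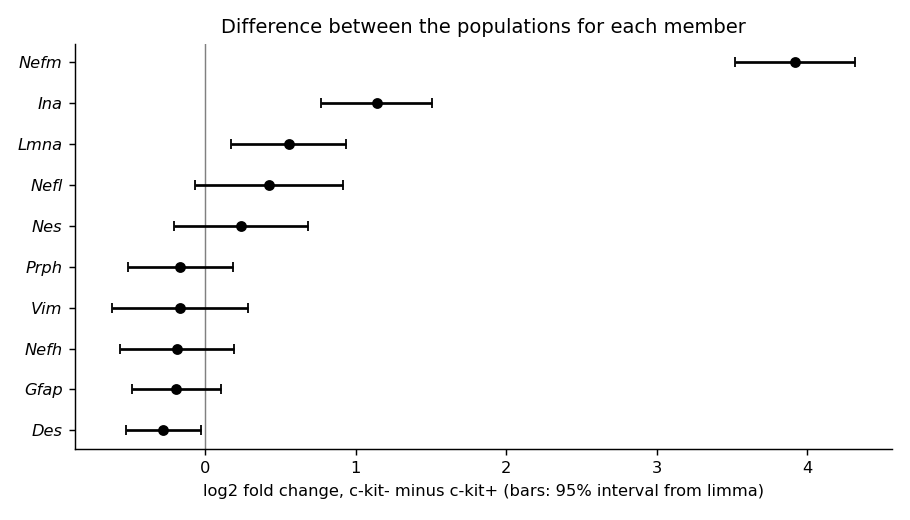
Log2 fold change (c-kit- minus c-kit+, horizontal axis) of the 10 genes with 95% intervals from limma, ordered by size. The interval of Nefm runs from 3.52 to 4.32 and that of Ina from 0.77 to 1.51, and 6 of the other intervals include 0.

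Nefl and Nefm are direct neighbors on chromosome 14 among the measured genes, and a transcript that overlaps Nefm changed with it. The 3 measured genes on either side of the pair were tested. Of these 6 genes 2 had a higher and 1 a lower signal in c-kit- cells, while 3 did not pass. The share called over all genes was 18.1%, and with 6 genes nothing is read from how many passed. A230070E04Rik, a long noncoding RNA whose annotated extent overlaps that of Nefm, was at 5.91, 5.97 and 5.49 on the c-kit- arrays and at 4.55, 4.41 and 4.14 on the c-kit+ arrays. Every c-kit- array lay above every c-kit+ array by more than the spread within a population. Its log2 fold change was 1.42 (standard error 0.17, limma adjusted p = 0.000811 over all genes), and it passed under each alternative in which it was tested. The gene table gives no strand and the files no probe positions, so whether the probes of Nefm and of this RNA read the same stretch was not tested. Dock5, a guanine nucleotide exchange factor on the side of Nefl, had a mean of 8.37 (SD 0.10) on the c-kit- arrays and of 7.53 (SD 0.22) on the c-kit+ arrays, a log2 fold change of 0.83 (limma adjusted p = 0.00377). Kctd9, farther on the same side, was lower in c-kit- cells (log2 fold change -0.78, limma adjusted p = 0.00337). Dock5 and Kctd9 no longer passed without c-kit+ arrays 1 and 2 (limma adjusted p = 0.121 and 0.150). Gnrh1 (log2 fold change -0.33), Adam7 (-0.19) and Adamdec1 (-0.02) did not pass. The neighborhood therefore held genes with differences of either sign, and Nefl, which lies between Dock5 and Nefm, had a log2 fold change of 0.43 with populations that overlapped.

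**Figure D3:**
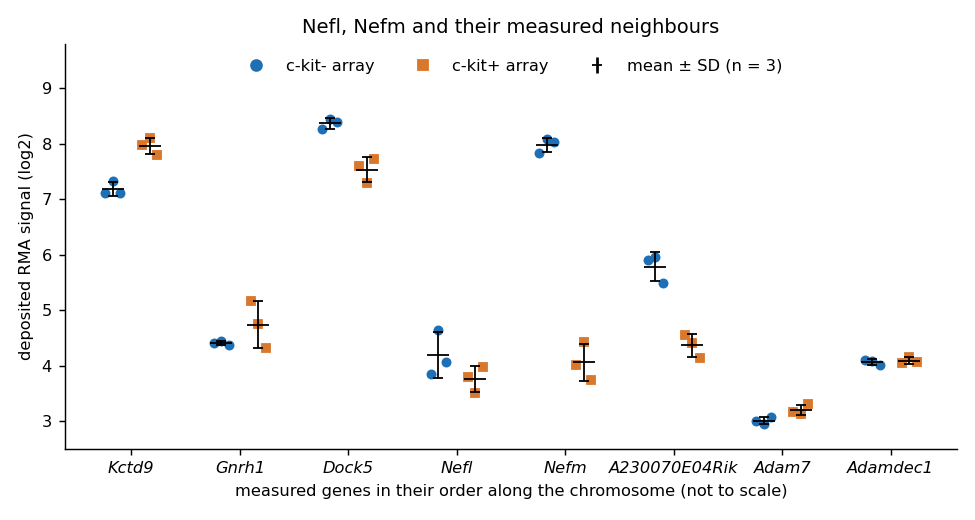
Deposited RMA signal (log2, vertical axis) of Nefl, Nefm and the 3 measured genes on either side in chromosome order (horizontal axis, not to scale), for each c-kit- array (circles) and c-kit+ array (squares), with the mean and SD of 3 arrays in black. A230070E04Rik lies between 5.49 and 5.97 on the c-kit- arrays and between 4.14 and 4.55 on the c-kit+ arrays, and Adam7 and Adamdec1 beyond it differ little.

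The genes whose signals ran most like those of Nefm were Etv5, Ret, Glis3, Dusp6 and Igf2bp2. Likeness was measured as the root mean square difference between log2 signals centered on each gene's mean over the 6 arrays, and it was 0.24 for Etv5, 0.25 for Ret, 0.26 for Glis3 and Dusp6 and 0.37 for Igf2bp2. These genes share with Nefm mainly the gap between the populations, with log2 fold changes from 3.41 for Igf2bp2 to 3.92 for Glis3. Those most like Ina were B230217C12Rik, Tiam1, Dhrs7b, Ski and Dapk2, at 0.06 to 0.08 on the same measure, with log2 fold changes from 1.05 for Dhrs7b to 1.20 for B230217C12Rik. For these 5 genes, as for Ina, c-kit- array 1 was the highest array and c-kit- array 3 the lowest of its population.

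Beyond the 10 genes, 101 of 103 listed genes of other intermediate filaments, their linkers, the partners of lamins and the turnover of filaments were measured. Of these, 10 were higher in c-kit- cells, 10 were lower and 81 did not pass, so that 19.8% were called where 18.1% of all genes were. Their median log2 fold change was -0.07 against -0.04 over all genes. The share called was thus close to that over all genes. Without c-kit+ arrays 1 and 2, 1 of them remained higher (Krt17) and 3 remained lower (Evpl, Tmem43 and Plk1).

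Keratins form the filaments of epithelia as pairs of an acidic and a basic partner. Of 22 keratins of stratified epithelia, 2 had a higher and 1 a lower signal in c-kit- cells, while 19 did not pass, so that 13.6% were called beside 18.1% of all genes. Krt17, an acidic keratin of skin appendages and wounded epidermis, was at 5.74, 5.43 and 5.22 on the c-kit- arrays and at 4.24, 4.62 and 4.07 on the c-kit+ arrays (log2 fold change 1.15, standard error 0.18, limma adjusted p = 0.00325). Krt24 was at 6.37, 6.51 and 5.78 against 5.30, 4.99 and 5.14 (log2 fold change 1.08, limma adjusted p = 0.00579), and for both keratins every c-kit- array lay above every c-kit+ array. Krt90 was lower (-0.51), a call lost when any of 4 arrays was left out (c-kit- array 2 or 3 and c-kit+ array 2 or 3, limma adjusted p = 0.0613 to 0.0830). Of 25 measured hair and other keratins, Krt222, an atypical keratin, was at 5.51, 5.36 and 5.28 against 4.31, 4.04 and 4.54 (log2 fold change 1.09, limma adjusted p = 0.00157) and Krt87 was higher by 0.44. Krt87 no longer passed without c-kit- array 2 or 3 or without c-kit+ array 1 or 3 (limma adjusted p = 0.0540 to 0.0938), and the other 23 did not pass, so that 8% of this list were called. None of the 6 keratins of simple epithelia passed at an adjusted p under 0.05 in limma, and 1 had an unadjusted p under 0.05. This was Krt18, which pairs with Krt8 in such epithelia and was at 5.03, 5.62 and 5.09 against 4.85, 4.25 and 4.82 (log2 fold change 0.60, limma adjusted p = 0.0871), and Krt8 had a log2 fold change of -0.20.

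Among the remaining filament genes, calls ran in either direction. Bfsp1, the gene of filensin in the beaded filaments of the eye lens, was at 5.46, 5.35 and 5.24 on the c-kit- arrays and at 4.77, 4.69 and 4.63 on the c-kit+ arrays (log2 fold change 0.66, limma adjusted p = 0.00407). Sync, the gene of syncoilin, which binds desmin filaments in muscle, was at 5.31, 5.77 and 5.48 against 6.34, 6.25 and 6.25 and so was lower in c-kit- cells (-0.76, limma adjusted p = 0.00544). Iffo2, an intermediate filament family orphan, was lower by a log2 fold change of -0.48, a call lost without c-kit- array 2 or 3 or c-kit+ array 2 or 3 (limma adjusted p = 0.0876 to 0.135) and with the replicate number as a block (0.0558). Synm, Iffo1 and Bfsp2 did not pass. Of the B-type lamins, Lmnb1 was at 8.24, 7.99 and 7.99 against 8.50, 8.66 and 8.46 (log2 fold change -0.47, limma adjusted p = 0.0271). Its sign was opposite to that of Lmna, and the call was lost when any array other than c-kit- array 1 was left out (limma adjusted p = 0.0578 to 0.0924). Lmnb2 had a log2 fold change of -0.14 with populations that overlapped.

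Of 18 partners of lamins at the nuclear envelope, 1 was higher, 1 was lower and 16 did not pass. The share called was 11.1%, beside 18.1% of all genes. Tmem43, a membrane protein of the inner nuclear envelope, was at 6.17, 6.09 and 6.33 on the c-kit- arrays and at 7.30, 7.03 and 7.25 on the c-kit+ arrays. The gap between the populations was larger than the range of the arrays within either, and Tmem43 had a log2 fold change of -1.0 (standard error 0.12, limma adjusted p = 0.00100) and passed under all 16 alternatives. Lemd3, which binds lamins and SMAD proteins, was at 8.09, 8.63 and 8.33 against 7.79, 7.74 and 7.60 (0.64, limma adjusted p = 0.0197), a call lost without c-kit- array 2 or 3 or c-kit+ array 2 or 3 (0.0507 to 0.0745). Of 6 measured plakins, the large proteins that tie filaments to junctions and to other parts of the cytoskeleton, Dst was higher and Evpl was lower. Thus 33.3% of the plakins were called, a list of few genes. Dst, the dystonin gene, was at 7.96, 8.14 and 8.27 against 7.32, 7.26 and 7.44 (0.79, limma adjusted p = 0.00266), and Evpl, the envoplakin gene, at 5.17, 5.08 and 5.31 against 5.63, 6.04 and 6.17 (-0.76, limma adjusted p = 0.0110). Plec, the plectin gene, had a log2 fold change of 0.13 and did not pass.

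Of 16 genes for the turnover, chaperones and kinases of filaments, 3 were higher in c-kit- cells, 4 were lower and 9 did not pass. The share called was 43.75%, beside 18.1% of all genes, and the difference between these shares was not tested. Bag3, a co-chaperone that works with small heat shock proteins, was higher by 0.80 and Mapk3, the gene of ERK1, by 0.79 (limma adjusted p = 0.00995 and 0.00210). Cdk5, a kinase that phosphorylates neurofilament tails, was at 7.09, 6.91 and 6.72 against 7.61, 7.25 and 7.61 (-0.58, limma adjusted p = 0.0278). Plk1, a kinase of mitosis that also acts on vimentin, was at 7.69, 8.13 and 7.93 against 9.34, 9.10 and 9.15 (-1.28, limma adjusted p = 0.000577). Rock1 was lower too (-0.45). Cdk5 and Rock1 did not pass in every fit with 1 array left out. Cdk5 was lost without c-kit- array 2 or 3 or c-kit+ array 1 or 3 (limma adjusted p = 0.0707 to 0.0985). Rock1 was lost without any array other than c-kit- array 1 (0.0747 to 0.144), and with equal array medians (0.0614).

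**Figure D4:**
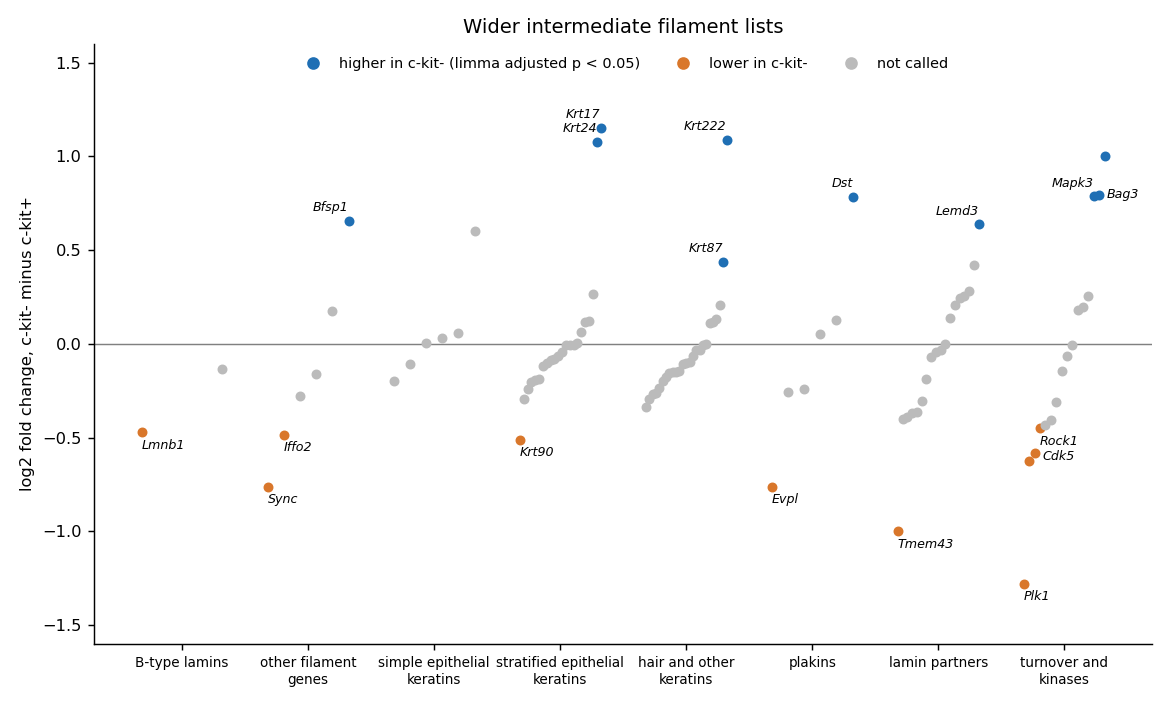
Log2 fold change (c-kit- minus c-kit+, vertical axis) of the 101 measured genes of the wider lists, with genes of a list side by side in order of size. Blue points are the 10 genes higher in c-kit- cells and orange points the 10 that were lower at an adjusted p under 0.05 from limma over all genes, with the names of those described in the text, and gray points are the 81 genes not called.

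Markers of neurons did not move with Nefm and Ina. Of 20 neuron markers, 1 was higher in c-kit- cells, 3 were lower and 16 did not pass, so that 20% were called. Over all genes 18.1% were called, 9.33% higher and 8.79% lower in c-kit- cells, and these shares apply to every marker count given here. The share of neuron markers called was thus close to that over all genes. Their mean signal was 5.09 to 5.17 on the c-kit- and 5.20 to 5.38 on the c-kit+ arrays. Elavl3, an RNA-binding protein of neurons, had a mean of 5.18 (SD 0.15) on the c-kit- arrays and of 6.69 (SD 0.09) on the c-kit+ arrays, a log2 fold change of -1.51 (limma adjusted p = 0.000117), and Pou4f1 (-0.95) and Map2 (-0.45) were lower as well. Of 8 glia markers, 1 was lower and 7 did not pass. Endothelial markers ran in the direction of Nefm and Ina, with 4 of 8 higher in c-kit- cells (Cdh5, Flt1, Tek and Pecam1, by log2 fold changes of 0.42 to 1.09) and a list mean of 4.71 to 4.90 on the c-kit- and 4.23 to 4.40 on the c-kit+ arrays, and their part in the result was not tested. Peritubular myoid markers, with 3 of 8 lower (Tagln, Smtn and Mylk) and a mean of 5.49 to 5.71 against 5.95 to 6.08, ran in the direction of Des, and this too was not tested. Sertoli cell markers, which bear on Vim, overlapped between the populations in their mean (6.31 to 6.35 against 6.26 to 6.42), with 2 of 12 higher (Ctsl and Trf). Of 11 measured leukocyte markers 2 were lower (Cd74 and C1qb), of 7 Leydig cell markers 1 was lower (Nr2f2), and of 7 fibroblast markers none passed in limma, at an unadjusted p under 0.05 either.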

How the data were processed

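The authors hybridized 6 samples, 3 per population, to Affymetrix GeneChip Mouse Gene 2.0 ST arrays after amplification from 500 pg of total RNA, and deposited log2 values, 1 per gene ID and array, from robust multi-array average (a Bioconductor method of background correction, quantile normalization and probe summary). The version and probe set definition are not given in the sources used here. Amplification and quantile normalization can compress or shift differences of weakly expressed genes, and the number of arrays limits the precision. Genes were named by ID from a RefSeq gene table of GRCm38.p6 (24481) or the platform's table (93), and 399 had no name. The contrast of c-kit- with c-kit+ was fitted in limma 3.58.1 (lmFit, eBayes, R 4.3.3), with Benjamini-Hochberg adjustment over 24973 genes and a call at an adjusted p under 0.05. Each sample came from 1 mouse. The p-values set the difference between the populations against the spread between samples within a population, with information on the variance shared between genes. They treat the samples as independent, although it is not known if the same mice gave both populations. The fit was tested first on simulated data in which 200 of 24973 genes were changed. It recovered 63 of 100 genes changed 2-fold and 92 of 100 changed 4-fold, with 4 false calls. Far more genes were called in the real data, so these shares need not hold there. A gene that did not pass can still differ between the populations.

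The 10 genes and all other lists were chosen with earlier results of these data known. Named were the 10 genes, the called genes of each wider list (up to 4 in each direction, by fold change), the 3 measured neighbors on either side of Nefl and Nefm, the 5 genes most like Nefm and Ina, and markers. Krt18, Krt8, Lmnb2, Plec, Synm, Iffo1 and Bfsp2 were added after their values were seen. Krt85, Eppk1, Insl3 and Lyz2 were not analysed here, and a few called genes of the wider and marker lists are counted but not reported here by name. Alternatives covered the test the methods name, scaling, filters on low values, variance settings, array weights, the replicate number as a block and each array left out.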

Additional observations from a re-analysis of the deposited data

How the results depend on the processing

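Over 16 alternatives, the log2 fold change was 3.76 to 4.23 for Nefm and 1.00 to 1.28 for Ina, given as ranges only since values of this comparison chose these genes. With the ANOVA per gene that the methods name, 1307 genes were higher and 1205 lower in c-kit- cells after the same adjustment, with 4 (Bfsp1, Krt222, Dst and Mapk3) and 2 (Tmem43 and Plk1) of the wider lists. Among genes above the median signal, 1 neighbor gene was higher in place of 2, since A230070E04Rik falls below that median. Leaving out single arrays gave 1727 to 2195 higher and 1478 to 1889 lower genes, 2 to 3 members higher, 8 to 11 wider genes higher and 4 to 11 lower, and of 20 called wider genes 12 kept their call in each of these fits. The fit without c-kit+ replicates 1 and 2 was added after the values were seen and leaves 1 c-kit+ array, assumed to vary like the others. It gave 527 genes higher and 239 lower, 1 member, 1 and 3 wider genes and 1 and 0 neighbor genes. No called gene changed sign under an alternative, among 36 genes followed.

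Same-numbered arrays deviated together only weakly (r = 0.10, 0.10 and 0.14 across genes), although each array correlated best with its own number. The labels do not say that a number marks a mouse. With the replicate number as a block, 2350 genes were higher and 2163 lower, 3 members were higher (a count only), 10 wider genes were higher and 9 lower, with Iffo2 no longer called (limma adjusted p = 0.0558).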
